A study of Mus musculus with 6 samples.

Results

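The 8 genes described here, Atp2a2, Pln, Casq2, Hrc, Asph, Slc8a1, Camk2d and S100a1, serve calcium uptake, storage, exchange and its regulation in CMs (cardiomyocytes, the contracting cells of the heart). They were given as a list of names, and all 8 were found among the 23337 genes of the count table. RNA-seq compared wild-type mouse CMs that overexpressed SRF (SRF-OE), a transcription factor of muscle genes, with CMs that expressed GFP alone. Pups received either the vector AAV9-cTNT-SRF-2A-GFP or its control, AAV9-cTNT-GFP, on postnatal day 1 (P1) at 5e8 vg per g body weight, a mosaic dose that reaches only part of the CMs, and GFP-positive CMs were sorted at P14 after collagenase perfusion of the heart. Both vectors use the cardiac troponin T promoter, so all groups carried a viral vector and GFP, and uninjected CMs were not part of the comparison. The series names 3 biological replicates in each group, and the labels give no strain, no sex and no number of hearts per library.

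Each heartbeat begins when calcium entering through the cell membrane triggers the release of far more calcium from the sarcoplasmic reticulum (SR), the calcium store that wraps the myofibrils. Relaxation follows as SERCA2, the pump encoded by Atp2a2, returns calcium to the SR under the control of its inhibitor phospholamban, while the exchanger encoded by Slc8a1 carries calcium out of the cell. Calsequestrin and the histidine-rich calcium binding protein hold calcium inside the SR, and kinases and small calcium sensors tune pump, store and release channel. The pump becomes more abundant as CMs mature after birth, and its loss is a known feature of failing hearts.

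Counts could be used for 5 libraries, replicates 2 and 3 of SRF-OE and replicates 1, 2 and 3 of GFP, with total counts between 14137433 and 23159631. The column headed as SRF-OE replicate 1 held gene lengths, with 0 zeros among 23337 values, and was used as gene length only. Levels below are CPM, read counts scaled to library size with edgeR's TMM factors, and adjusted p-values come from edgeR's quasi-likelihood test with Benjamini-Hochberg adjustment over all genes tested. Srf, the overexpressed gene, stood at 357 CPM (replicate 2) and 750 CPM (replicate 3) in SRF-OE and at 67.8 CPM (replicate 2) and 83.4 CPM (replicate 3) in GFP. In the library labelled GFP1 its level of 342 CPM was nearly that of SRF-OE replicate 2. The Srf counts do not separate the vector's transcript from the endogenous gene, and whether the header is displaced or the library carries another label than its own cannot be told apart here. The result for each of the 8 genes is therefore given both with the library labelled GFP1 and without it. For Srf the log2 fold change was 1.76 (standard error, SE, 0.71, adjusted p = 0.36) with 5 libraries and 2.87 (SE 0.37, adjusted p = 0.044) without that library.

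The sorted cells were checked against cardiac markers. The summed level of 11 cardiomyocyte markers, none of them at 0, was between 93133 and 105049 CPM in SRF-OE and between 108597 and 156609 CPM in GFP, far above the sums of the other cell types in all 5 libraries. Over 12 endothelial markers the sum was between 515 and 1247 CPM in SRF-OE and between 473 and 1076 CPM in GFP. Over 12 fibroblast markers it was between 680 and 1087 CPM in SRF-OE and between 458 and 684 CPM in GFP. The 10 smooth muscle and pericyte markers summed to between 1041 and 1192 CPM against between 1183 and 1983 CPM, and the 11 leukocyte markers to between 16.7 and 46.3 CPM against between 15.2 and 37.9 CPM. Atrial markers, 7 genes, summed to between 2334 and 2414 CPM in SRF-OE and between 206 and 1709 CPM in GFP. Most of this sum was Nppa, which the paper uses as a marker of cardiac stress. Its level was 1627 and 1915 CPM in SRF-OE replicates 2 and 3 and between 174 and 1206 CPM in GFP. No marker was at 0 in any library. Single markers did not always follow these sums. Of the 10 smooth muscle and pericyte markers 2 had a negative log2 fold change, the abundant Acta2 at -1.12 and Abcc9 at -0.37, and the median was 0.56 (0.98 with the library labelled GFP1 left out). The median was 0.42 for the endothelial list with 0 of 12 negative, 0.78 for the fibroblast list with 1 of 12 negative, 0.38 for the leukocyte list with 3 of 10 tested negative and 0.82 for the atrial list with 2 of 7 negative. With the library labelled GFP1 left out, these medians were 0.84, 0.98, 0.82 and 1.38 in the same order. In sorted bulk RNA, fewer cells of a type and less RNA per cell cannot be told apart, and the part of these shifts in the results below was not tested.

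With all 5 libraries, 0 of the 8 calcium cycling genes passed an adjusted p of 0.05 in either direction, where 0% of the 13754 genes tested were called lower. All 8 log2 fold changes were negative, from -0.95 for Hrc to -0.11 for Slc8a1, with a median of -0.40 against 0.03 for the whole table. Atp2a2, Hrc and S100a1, 3 of 8, were lower at an unadjusted p under 0.05, where 7.59% of all genes were. For 7 of 8 genes both SRF-OE libraries lay below all 3 GFP libraries, where 18.5% of all genes showed that order, 15.1% the opposite order, and 0 of 8 members did the latter. With the library labelled GFP1 left out, the median was -0.51 against 0.04 for all genes, and again 0 of 8 passed, where 0.970% of the genes tested were called lower. An unadjusted p under 0.05 was reached by 6 of 8, all lower, where 14.0% of all genes were lower and 14.4% higher at that level. The groups of these 4 libraries did not overlap for 7 of 8 members, all lower, where 29.7% of all genes were lower in this way and 30.6% higher. DESeq2, the tool of the study's methods, called 3 of 8 lower with 5 libraries, Atp2a2, Pln and Hrc. It gave an adjusted p to only 1167 genes and called 18.3% of these lower and 0.943% higher. On the 4 libraries left without the one labelled GFP1, DESeq2 called 5 of 8 lower, the same 3 and Camk2d and Asph, where it called 6.14% of 13559 genes lower and 6.29% higher. Adding the replicate number to the fit as a block called 1 of 8 lower, Hrc, where 3.14% of all genes were called lower and 4.23% higher. No other library shares a block with the one labelled GFP1, so the group difference here rests on the other 4 libraries. The Hrc call therefore does not show a difference with the library labelled GFP1 kept in. On the 4 libraries alone, replicate number and sex of the tissue coincide. There the block also called Hrc alone, with 2.93% of all genes lower and 4.08% higher, which is no separate result.

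**Figure D1:**
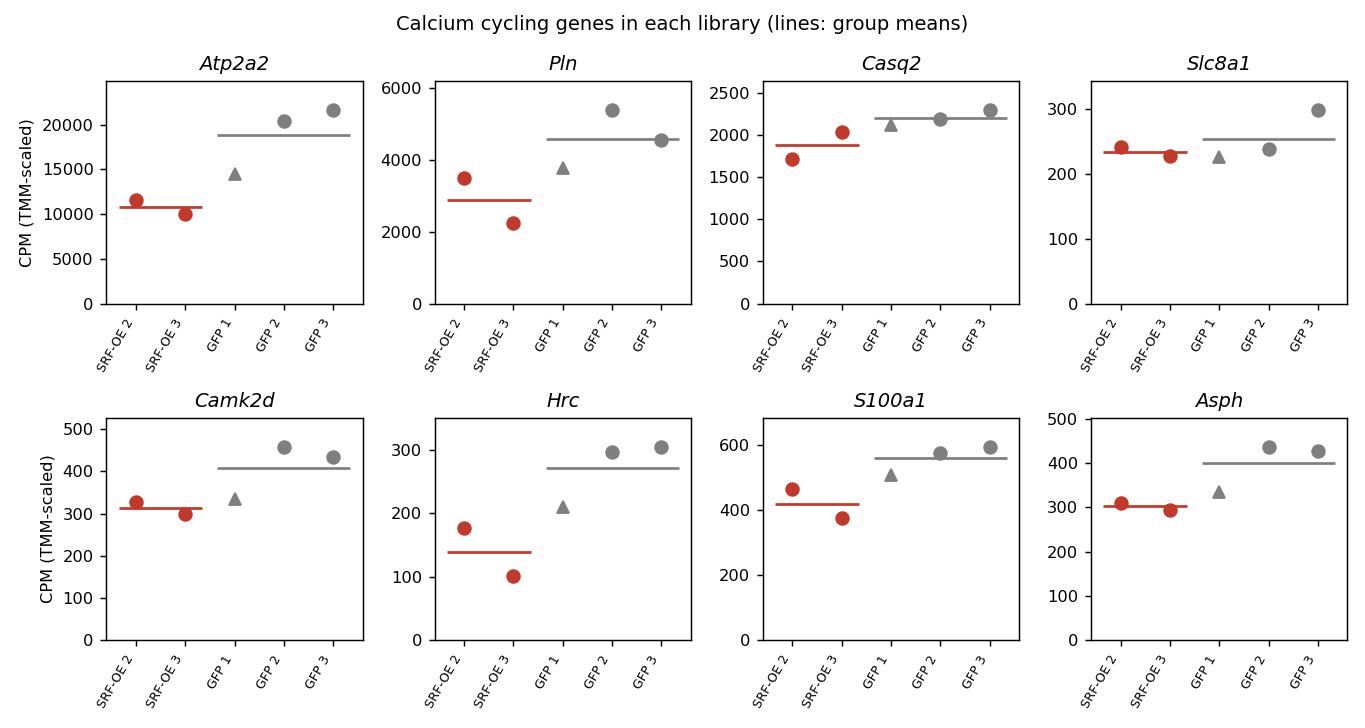
Level of each of the 8 calcium cycling genes in the 5 libraries, in CPM on linear axes that start at 0. Red points are SRF-OE, grey points GFP, the grey triangle is the library labelled GFP1, and lines are group means. Slc8a1 is the panel in which the groups overlap, and the triangle lies between the groups in the other 7 panels.

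Promoter sequences are shown for 3 genes, Hrc because its difference was the largest of the 8, and Pln and Casq2 because they hold motif matches. RefSeq promoters, from 250 bases before to 50 bases after the transcription start, were matched for 6 of the 8 genes, Camk2d, Casq2, Hrc, Pln, S100a1 and Slc8a1. They were searched on both strands for the CArG box, which SRF binds, the MEF2 site, TATAAA and GATAAG, the last a GATA factor sequence. Capitals mark matches, and each sequence runs 5′ to 3′ along the gene.
Hrc promoter, GRCm38.p6, chr7:45335019-45335318, plus strand: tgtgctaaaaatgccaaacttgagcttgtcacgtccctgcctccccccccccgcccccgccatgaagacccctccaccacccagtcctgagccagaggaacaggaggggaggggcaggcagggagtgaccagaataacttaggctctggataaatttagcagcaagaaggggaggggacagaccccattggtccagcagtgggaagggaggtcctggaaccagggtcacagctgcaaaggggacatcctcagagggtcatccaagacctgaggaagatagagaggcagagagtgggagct
Pln promoter, GRCm38.p6, chr10:53337436-53337735, plus strand: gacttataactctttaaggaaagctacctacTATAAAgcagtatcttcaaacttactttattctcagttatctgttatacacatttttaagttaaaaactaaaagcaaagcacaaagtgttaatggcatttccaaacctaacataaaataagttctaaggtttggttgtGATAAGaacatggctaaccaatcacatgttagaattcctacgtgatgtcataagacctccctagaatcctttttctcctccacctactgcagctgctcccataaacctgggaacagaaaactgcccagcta
Casq2 promoter, GRCm38.p6, chr3:102086165-102086464, plus strand: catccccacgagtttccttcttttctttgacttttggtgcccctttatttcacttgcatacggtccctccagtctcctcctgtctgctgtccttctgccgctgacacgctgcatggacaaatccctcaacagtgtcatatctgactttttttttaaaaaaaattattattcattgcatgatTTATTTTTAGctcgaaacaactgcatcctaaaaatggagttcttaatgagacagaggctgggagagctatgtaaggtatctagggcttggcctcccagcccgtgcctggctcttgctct
The CArG box was found in 0 of the 6 windows and in 1.63% of 32851 promoters, and Srf's own promoters hold it in 1 case. The MEF2 site was found in Casq2, beginning 69 bases before the start, and in 3.19% of all promoters. TATAAA was found in Pln, 219 bases before the start, and in 13.6% of all promoters. GATAAG was found in Pln, 81 bases before the start, in Slc8a1, 67 bases before the start, and in 7.44% of all promoters. The Hrc window, which belongs to the gene with the largest difference, held none of the 4 motifs. A match describes these letters only, and the window leaves out enhancers and other starts.

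Atp2a2 encodes SERCA2, the pump that refills the SR (chromosome 5 of GRCm38, 122453513 to 122502225, minus strand). It was the most abundant of the 8 genes. Its level was 11609 CPM (replicate 2) and 10029 CPM (replicate 3) in SRF-OE, against 20437 CPM (replicate 2) and 21638 CPM (replicate 3) in GFP and 14501 CPM in the library labelled GFP1. The groups did not overlap, and the library labelled GFP1 was the lowest GFP library. SRF-OE averaged 10819 ± 1117 CPM (SD, n = 2) and GFP averaged 18859 ± 3821 CPM (SD, n = 3), which gave a log2 fold change of -0.80 (SE 0.32, adjusted p = 0.36). With the library labelled GFP1 left out it was -0.96 (SE 0.25, adjusted p = 0.081), which is 0.515 of the GFP level. Of all genes tested, 2.77% had a lower log2 fold change than Atp2a2. DESeq2 gave -0.81 (SE 0.23, adjusted p = 0.017) with 5 libraries. The counts behind these values ran from 202525 to 441766 per library.

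Pln encodes phospholamban, which holds the pump back until it is phosphorylated (chromosome 10, 53337667 to 53345987, plus strand). Its level was 3505 CPM (replicate 2) and 2259 CPM (replicate 3) in SRF-OE, against 5396 CPM (replicate 2) and 4570 CPM (replicate 3) in GFP and 3778 CPM in the library labelled GFP1. The SRF-OE and GFP levels did not overlap, but SRF-OE replicate 2 lay close under the library labelled GFP1 and well above SRF-OE replicate 3. edgeR gave a log2 fold change of -0.66 (SE 0.29, adjusted p = 0.37), and -0.78 (SE 0.27, adjusted p = 0.13) with the library labelled GFP1 left out. DESeq2 placed it just under the threshold, at -0.68 (SE 0.26, adjusted p = 0.047). An annotated gene on the opposite strand, Gm47644, shares 1644 bases of exon with Pln, and the counting is not stated to use strand, so reads of the pair cannot be told apart.

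The balance of inhibitor and pump was read as the ratio of Pln to Atp2a2 in reads per kb within each library, which does not depend on how a library is scaled. It was 0.697 in SRF-OE replicate 2 and 0.520 in SRF-OE replicate 3. It was 0.610 in GFP replicate 2, 0.488 in GFP replicate 3 and 0.601 in the library labelled GFP1, so the groups overlapped. The difference of mean log2 ratios was 0.10, and an exact two-sided permutation test gave p = 0.7, where 2 libraries against 3 cannot go below 0.1. With the library labelled GFP1 left out the difference was 0.14 (exact permutation p = 0.67, smallest possible 0.33), and it turned to -0.12 without SRF-OE replicate 2. Both genes lay lower in the 2 SRF-OE libraries than in the 3 GFP libraries, while a shift of their ratio was not detectable with this number of libraries.

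Of the 3 genes of the SR store, Hrc had the largest difference between the groups and Casq2 the smallest. Hrc encodes the histidine-rich calcium binding protein of the SR lumen (chromosome 7, 45335290 to 45338974, plus strand). Its level was 177 CPM (replicate 2) and 101 CPM (replicate 3) in SRF-OE, against 297 CPM (replicate 2) and 305 CPM (replicate 3) in GFP and 210 CPM in the library labelled GFP1. Both SRF-OE libraries lay below the GFP libraries, and the 2 SRF-OE libraries differed from each other by 0.80 on the log2 scale. The log2 fold change of -0.95 (SE 0.29, adjusted p = 0.35) was the lowest of the 8 genes, and 1.60% of all genes tested were lower still. The 4 libraries left without the one labelled GFP1 gave -1.11 (SE 0.26, adjusted p = 0.068). DESeq2 gave -0.97 (SE 0.29, adjusted p = 0.021) with 5 libraries. Leaving out SRF-OE replicate 2 gave -1.42, and leaving out SRF-OE replicate 3 gave -0.61, so the size of the Hrc difference rested on which of these was kept.

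Asph encodes aspartate beta-hydroxylase and, from the same locus, the SR proteins junctin and junctate, which sit at or near the release channel (chromosome 4, 9448069 to 9669344, minus strand). Counts per gene do not separate these products. The level was 311 CPM (replicate 2) and 293 CPM (replicate 3) in SRF-OE, against 437 CPM (replicate 2) and 428 CPM (replicate 3) in GFP and 335 CPM in the library labelled GFP1. The replicates of each group lay close together apart from the library labelled GFP1, which stood nearer to SRF-OE. edgeR gave a log2 fold change of -0.40 (SE 0.17, adjusted p = 0.36), and -0.52 (SE 0.12, adjusted p = 0.067) with the library labelled GFP1 left out, where DESeq2 gave an adjusted p of 0.030. Genes on the opposite strand, among them Clvs1, share 2368 bases of exon with Asph, and reads of the 2 strands cannot be told apart.

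Casq2 encodes cardiac calsequestrin, the main calcium buffer of the SR (chromosome 3, 102086415 to 102146514, plus strand). Its level was 1711 CPM (replicate 2) and 2040 CPM (replicate 3) in SRF-OE, against 2194 CPM (replicate 2) and 2294 CPM (replicate 3) in GFP and 2119 CPM in the library labelled GFP1. The groups did not overlap, but the gap between SRF-OE replicate 3 and the library labelled GFP1 was small, and Casq2 was the gene for which SRF-OE replicate 2 was the lowest library. The log2 fold change was -0.23 (SE 0.18, adjusted p = 0.56), and -0.26 (SE 0.18, adjusted p = 0.38) with the library labelled GFP1 left out. Of all genes tested, 23.6% had a lower value.

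Slc8a1 encodes NCX1, the sodium-calcium exchanger of the cell membrane (chromosome 17, 81373105 to 81738377, minus strand). Its level was 241 CPM (replicate 2) and 228 CPM (replicate 3) in SRF-OE, against 238 CPM (replicate 2) and 298 CPM (replicate 3) in GFP and 225 CPM in the library labelled GFP1. The groups overlapped, and GFP replicate 3 alone stood apart at the top. edgeR gave a log2 fold change of -0.11 (SE 0.17, adjusted p = 0.76), and -0.20 (SE 0.16, adjusted p = 0.45) with the library labelled GFP1 left out. Without GFP replicate 3 it was 0.04.

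Relative to the pump, the exchanger lay higher in both SRF-OE libraries than in the 3 GFP libraries, at a p that misses the threshold. The ratio of Slc8a1 to Atp2a2 in reads per kb was 0.00639 in SRF-OE replicate 2 and 0.00698 in SRF-OE replicate 3. It was 0.00359 in GFP replicate 2, 0.00424 in GFP replicate 3 and 0.00478 in the library labelled GFP1. The groups did not overlap, with a difference of mean log2 ratios of 0.68 and an exact two-sided permutation p of 0.1, the smallest that 2 libraries against 3 can give. With the library labelled GFP1 left out the difference was 0.78 (exact permutation p = 0.33, again the smallest possible). The design is too small for this test to pass the threshold.

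Camk2d and S100a1 act on pump and release channel. Camk2d encodes the main cardiac form of calcium/calmodulin-dependent kinase II, which phosphorylates phospholamban and the release channel (chromosome 3, 126596302 to 126846326, plus strand). Its level was 328 CPM (replicate 2) and 299 CPM (replicate 3) in SRF-OE, against 458 CPM (replicate 2) and 433 CPM (replicate 3) in GFP and 335 CPM in the library labelled GFP1. The 2 groups stayed apart, but the library labelled GFP1 lay just above SRF-OE replicate 2 and far from the other GFP libraries. For Camk2d the log2 fold change was -0.38 (SE 0.18, adjusted p = 0.38), and -0.51 (SE 0.13, adjusted p = 0.073) without that library, where DESeq2 gave an adjusted p of 0.037.

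S100a1 encodes a small calcium sensor that binds SERCA2 and the release channel (chromosome 3, 90511034 to 90514392, minus strand). Its level was 463 CPM (replicate 2) and 377 CPM (replicate 3) in SRF-OE, against 575 CPM (replicate 2) and 594 CPM (replicate 3) in GFP and 509 CPM in the library labelled GFP1. The groups did not overlap, and the 3 GFP libraries lay closer together than for Atp2a2 or Hrc. The log2 fold change was -0.41 (SE 0.17, adjusted p = 0.36), and -0.48 (SE 0.16, adjusted p = 0.12) with the library labelled GFP1 left out. The unadjusted p of 0.045 with 5 libraries did not survive adjustment over all genes.

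Across the 8 genes the same few libraries stood at the ends of the range. SRF-OE replicate 3 was the lowest library for 6 genes, SRF-OE replicate 2 for Casq2 and the library labelled GFP1 for Slc8a1. GFP replicate 3 was the highest for 5 genes and GFP replicate 2 for 3. The library labelled GFP1 was the lowest GFP library for 8 of 8 genes, and for 7 it lay between the groups. On a linear scale where the SRF-OE mean is 0 and the mean of GFP replicates 2 and 3 is 1, its position ranged from -0.26 to 0.66 with a median of 0.39, and its Srf level sat at 0.44 on the same scale. Together the 8 genes took 2.01% and 1.67% of all counts in SRF-OE replicates 2 and 3, and 2.80%, 2.79% and 2.20% in GFP replicates 2 and 3 and the library labelled GFP1.

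By Xist and Y-linked transcripts, replicate 2 of both groups came from female tissue, with 146 and 89.6 CPM of Xist and 0 CPM of Y-linked genes, and the other 3 libraries had between 226 and 276 CPM of Y-linked genes. In the female pair, 7 of 8 genes were lower in SRF-OE, with log2 differences of -0.82 for Atp2a2, -0.62 for Pln and -0.75 for Hrc, and 0.02 for Slc8a1. In the male libraries, SRF-OE replicate 3 lay below both GFP libraries for 7 of 8 genes, and it differed from GFP replicate 3 by -1.11 for Atp2a2, -1.02 for Pln and -1.59 for Hrc. For the 7 genes whose groups did not overlap, both orders follow from that and are no further result. Each sex has 1 SRF-OE library, so there is no test within a sex.

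**Figure D2:**
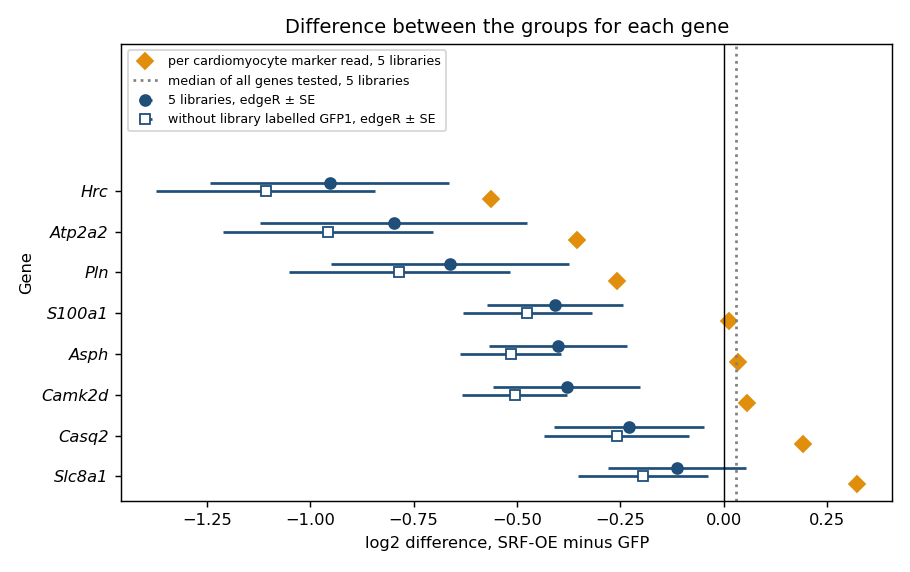
Difference between SRF-OE and GFP on the log2 scale for each gene, ordered by size. Filled circles are edgeR log2 fold changes with 5 libraries and open squares those with the library labelled GFP1 left out, both with the standard error as a bar, diamonds are differences relative to the summed cardiomyocyte marker reads, and the dotted line is the median of all genes tested, 0.03. Circles and squares are below 0 for all 8 genes, while 5 of the diamonds lie above 0.

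The cardiomyocyte markers lay lower as well. Of the 11 markers, 10 had a negative log2 fold change, with a median of -0.44, and 0 passed the adjusted threshold. The members were therefore also read per 1000 marker reads of the same library, a scale chosen after the values were seen. Most of these markers are myofibril genes, and the paper reports that myofibril genes fell with SRF overexpression. The scale is therefore no measure of the share of CMs in a library. Myh6, the main myosin heavy chain of these cells, made up between 38.3% and 47.5% of the marker reads. On this scale 3 of 8 genes were lower in SRF-OE, with log2 differences of -0.56 for Hrc, -0.35 for Atp2a2 and -0.26 for Pln. With the library labelled GFP1 left out these were -0.59, -0.39 and -0.24. Hrc and Atp2a2 stayed without overlap between groups (exact permutation p = 0.1 for each, the smallest possible), and Pln overlapped (exact permutation p = 0.4). Atp2a2 stood at 111 and 108 reads per 1000 marker reads in SRF-OE replicates 2 and 3, and at 147, 138 and 134 in GFP replicates 2 and 3 and the library labelled GFP1. Hrc stood at 1.69 and 1.09 in SRF-OE, and at 2.14, 1.95 and 1.93 in the GFP libraries in the same order. The differences of Camk2d, S100a1 and Asph were between 0.01 and 0.06 on this scale. Those of Casq2 and Slc8a1 were positive, at 0.19 and 0.32, and Slc8a1 was higher in both SRF-OE libraries than in the 3 GFP libraries (exact permutation p = 0.2). The direction of these 5 genes thus depended on the scale, and the part of the cardiomyocyte marker level in the lower CPM was not tested.

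Levels were compared between genes per kb of gene length, in CPM per kb. In GFP the mean was 3294 for Atp2a2, 1847 for Pln, 910 for S100a1, 895 for Casq2, 111 for Hrc, 91.6 for Camk2d, 32.5 for Asph and 13.7 for Slc8a1, so the top of this order was 241-fold above the bottom. S100a1 and Casq2 overlapped between GFP libraries, as did Hrc and Camk2d, and the other 5 neighbouring pairs did not. Over all 5 libraries, the pairs that did not overlap were Casq2 and Hrc, Camk2d and Asph, and Asph and Slc8a1. Atp2a2 ranked between 15 and 29 among all genes tested, Pln between 29 and 73, Casq2 between 83 and 105 and S100a1 between 94 and 119. In both SRF-OE libraries Camk2d stood above Hrc, by a small margin in SRF-OE replicate 2, whereas Hrc stood above Camk2d in all 3 GFP libraries. Long annotated transcripts lower the value per kb, and the lengths used were 18599 bp for Slc8a1 and 12294 bp for Asph. For Camk2d the table gives 4461 bp and the GENCODE exons 8524 bp. The place of Camk2d among its neighbours rests on this choice. At the GENCODE lengths Hrc would stand above Camk2d in SRF-OE as well. Of 20929 genes compared, 52.3% had a table length within 5% of their GENCODE exons.

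**Figure D3:**
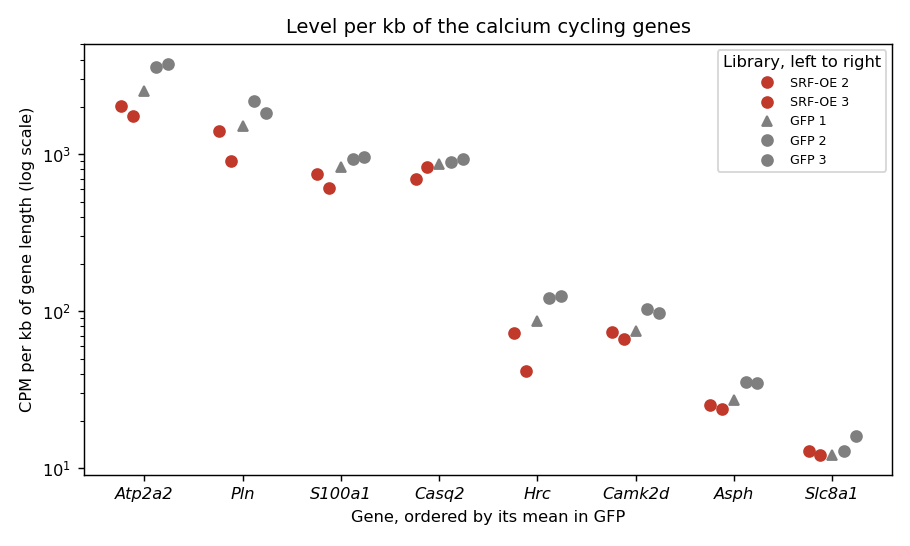
Level of the 8 genes in CPM per kb of gene length, on a log axis, with genes ordered by their mean in GFP. Each gene has 5 points, from left to right SRF-OE replicates 2 and 3 in red and GFP replicates 1, 2 and 3 in grey, the triangle being the library labelled GFP1. Atp2a2 to Casq2 lie at 613 CPM per kb and above, and Hrc to Slc8a1 at 125 CPM per kb and below.

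Shares within a gene family were computed for 4 members. Atp2a2 held between 99.88% and 99.97% of the reads per kb of the 3 SERCA genes, Slc8a1 between 98.5% and 99.3% of the 3 exchanger genes, and Camk2d between 84.6% and 85.9% of the 4 CaMKII genes. Casq2 held 97.1% and 95.1% of the calsequestrin reads per kb in GFP replicates 2 and 3, but 55.1% and 32.5% in SRF-OE replicates 2 and 3 and 42.9% in the library labelled GFP1. The other gene of the pair is Casq1, the calsequestrin of skeletal muscle (chromosome 1, 172209894 to 172219868, minus strand). Casq1 stood at 1063 CPM (replicate 2) and 3226 CPM (replicate 3) in SRF-OE, against 49.5 CPM (replicate 2) and 90.2 CPM (replicate 3) in GFP and 2149 CPM in the library labelled GFP1. The library labelled GFP1 thus lay between the SRF-OE libraries for this gene, and the groups overlapped only through it. Its log2 fold change was 1.51 (SE 1.46, adjusted p = 0.63) with 5 libraries and 4.94 (SE 0.64, adjusted p = 0.045) with the library labelled GFP1 left out. The Casq2 levels themselves stayed between 1711 and 2294 CPM, so the lower share of Casq2 came with a higher Casq1 level. The ratio of Casq1 to Casq2 per kb was 0.815 and 2.08 in SRF-OE, 0.0296 and 0.0516 in GFP replicates 2 and 3 and 1.33 in the library labelled GFP1.

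**Figure D4:**
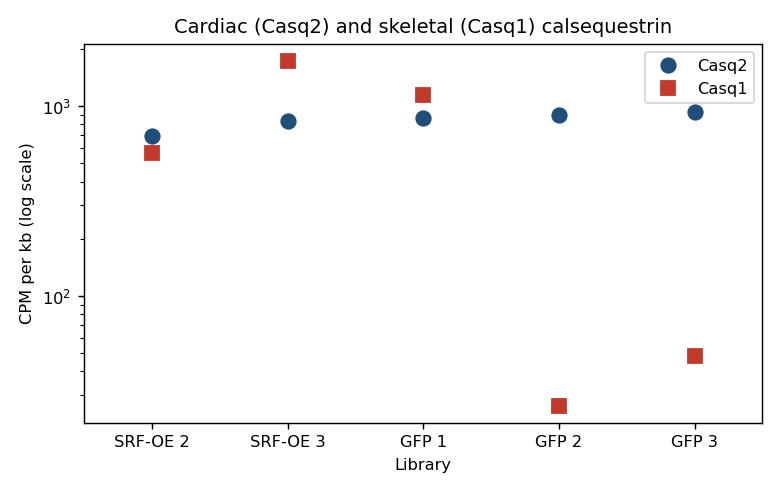
Level of cardiac calsequestrin, Casq2, in blue and of skeletal calsequestrin, Casq1, in red in each library, in CPM per kb on a log axis. Casq2 lies between 696 and 933 CPM per kb in all 5 libraries, while Casq1 lies at 567, 1721 and 1146 CPM per kb in SRF-OE replicates 2 and 3 and GFP replicate 1 and at 26.4 and 48.1 CPM per kb in GFP replicates 2 and 3.

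The other paralogs were low. Atp2a1, the pump of fast skeletal muscle, was between 1.06 and 1.53 CPM in all 5 libraries, with a log2 fold change of -0.08 (adjusted p = 0.94), and Atp2a3 had 0.64 (adjusted p = 0.54). Slc8a2 and Slc8a3 did not pass the filter on low counts. Of the kinase genes, Camk2b stood at 9.23 and 6.66 CPM in SRF-OE replicates 2 and 3, against 23.1 CPM in both GFP replicates 2 and 3 and 12.5 CPM in the library labelled GFP1. Camk2b had a log2 fold change of -1.30 (SE 0.34, adjusted p = 0.35), and with the library labelled GFP1 left out it fell by 1.54 on the log2 scale (SE 0.22, adjusted p = 0.047). Camk2a had -0.51 (adjusted p = 0.46) and Camk2g -0.04 (adjusted p = 0.91).

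Beyond the 8 genes, 87 further calcium handling genes were listed by role, of which 86 were in the table and 83 were tested. With 5 libraries 0 were called in either direction. At an unadjusted p under 0.05, 13 of the 83 were lower and 4 higher, where 7.59% of all genes were lower and 6.35% higher. Their median log2 fold change was -0.07, against 0.03 for all genes tested and -0.40 for the 8 members. In the fit that left out the library labelled GFP1, 4 fell and 4 rose, against 0.970% of all genes called lower and 1.98% called higher. The genes that fell were Camk2b, Ppp1r3a, Cacna2d1 and Rrad, and those that rose were Casq1, Ppp1r1a, Bin1 and Nfatc4. Upper quartile scaling of the same 4 libraries, chosen after seeing the data, left Casq1 as the only call (adjusted p = 0.044), with the other 7 at an adjusted p of 0.052.

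Of 15 regulators of SERCA and phospholamban tested, 2 were lower and 1 higher at an unadjusted p under 0.05, with a median of -0.15. At that level 7.59% of all genes were lower and 6.35% higher. Ppp1r1a encodes inhibitor 1 of protein phosphatase 1, which protects phospholamban phosphorylation, and its level was 9.52 and 12.1 CPM in SRF-OE replicates 2 and 3, against 4.26, 3.33 and 7.32 CPM in GFP replicates 2 and 3 and the library labelled GFP1. The log2 fold change of Ppp1r1a was 1.12 (adjusted p = 0.35), and 1.51 with the library labelled GFP1 left out (adjusted p = 0.0496), at the edge of the threshold. Ppp1r3a, a subunit that targets the phosphatase to glycogen and the SR, stood at 111 CPM in each SRF-OE library, against 177, 192 and 161 CPM in the GFP libraries in the same order. It had -0.66 (adjusted p = 0.35), and it fell by 0.73 (adjusted p = 0.048) with the library labelled GFP1 left out. Ppp1ca, the phosphatase's catalytic subunit, had -0.37 (adjusted p = 0.36). The most abundant gene of this list per kb, Tmem38a, which encodes an SR potassium channel, had -0.17 (adjusted p = 0.62).

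Among 13 genes of calcium release and the dyad, the junction of cell membrane and SR, the median was -0.05. At an unadjusted p under 0.05, where 7.59% of all genes were lower, 1 gene of the list was lower. That gene was Jph2, whose product ties the 2 membranes together, at 306 and 275 CPM in SRF-OE replicates 2 and 3, against 428, 573 and 336 CPM in GFP replicates 2 and 3 and the library labelled GFP1. Jph2 had a log2 fold change of -0.62 (adjusted p = 0.36), and -0.79 (adjusted p = 0.068) without that library. Bin1, which bends the T-tubule membrane, stood at 7.05 and 13.0 CPM in SRF-OE, against 2.04 and 1.24 CPM in GFP replicates 2 and 3 and 7.94 CPM in the library labelled GFP1. Its groups overlapped through that library, with 1.42 (adjusted p = 0.40) with 5 libraries and 2.59 (adjusted p = 0.048) without it. Ryr2, which encodes the release channel, stood at 1165 and 1042 CPM in SRF-OE replicates 2 and 3. It stood at 1500 and 1929 CPM in GFP replicates 2 and 3 and 1280 CPM in the library labelled GFP1. Ryr2 had -0.51 (adjusted p = 0.38), and -0.64 (adjusted p = 0.10) without that library. For 2 of the 13 genes, Jph2 and Ryr2, both SRF-OE libraries lay below all GFP libraries, where 18.5% of all genes did. Fkbp1a, the most abundant gene of this list per kb, had 0.04 (adjusted p = 0.89).

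The 11 sarcolemmal genes of calcium entry and extrusion had a median of -0.37, and -0.45 with the library labelled GFP1 left out. Cacna2d1 encodes the subunit that carries the L-type calcium channel to the membrane, and its level was 72.7 and 67.5 CPM in SRF-OE replicates 2 and 3, against 116, 128 and 90.9 CPM in GFP replicates 2 and 3 and the library labelled GFP1. Cacna2d1 had -0.67 (SE 0.18, adjusted p = 0.35), and it fell by 0.80 (adjusted p = 0.047) without that library. Rrad, a small GTPase that restrains the same channel, stood at 386 and 349 CPM in SRF-OE, against 679, 742 and 427 CPM in the GFP libraries in that order. It had -0.74 (adjusted p = 0.35), and it fell by 0.95 (adjusted p = 0.047) with the library labelled GFP1 left out. Cacna1h, a T-type channel of the immature heart, stood at 36.2 and 57.3 CPM in SRF-OE and between 17.4 and 29.2 CPM in GFP, with 0.92 (adjusted p = 0.35) and 1.00 (adjusted p = 0.10).

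Of the 7 lists, mitochondrial calcium transport held the largest share of genes with an unadjusted p under 0.05, 5 of 11 tested. Among all genes 7.59% were lower and 6.35% higher at that level. All 5 genes of the list were lower, with a list median of -0.31 and 0 called. They were Mcu, the pore of the mitochondrial uniporter, with -0.53, Letm1 with -0.60, Mcur1 with -0.42, and the outer membrane channels Vdac1 with -0.59 and Vdac3 with -0.32. Vdac1, the most abundant of this list per kb, stood at 591 and 569 CPM in SRF-OE replicates 2 and 3, against 974, 958 and 693 CPM in GFP replicates 2 and 3 and the library labelled GFP1. Without that library Vdac1 had -0.73 (adjusted p = 0.051) and Letm1 -0.72 (adjusted p = 0.054), both above the threshold.

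The 9 genes of store-operated entry and IP3 receptors had a median of 0.44, with 0 genes at an unadjusted p under 0.05, and the most abundant per kb, Orai1, had 0.02 (adjusted p = 0.96). The 18 genes of calcineurin and calmodulin signalling had a median of -0.07, with 2 lower and 2 higher at an unadjusted p under 0.05. At that level 7.59% of all genes were lower and 6.35% higher. Nfatc4, a transcription factor activated by calcineurin, stood at 5.22 and 10.1 CPM in SRF-OE, against 0.971 and 0.774 CPM in GFP replicates 2 and 3 and 4.14 CPM in the library labelled GFP1. Nfatc4 had 1.95 (adjusted p = 0.35), and 3.11 (adjusted p = 0.047) without that library. Rcan2, a calcineurin inhibitor and the most abundant of the list per kb, had -0.38 (adjusted p = 0.35), and Camk1 had -0.29 (adjusted p = 0.36).

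**Figure D5:**
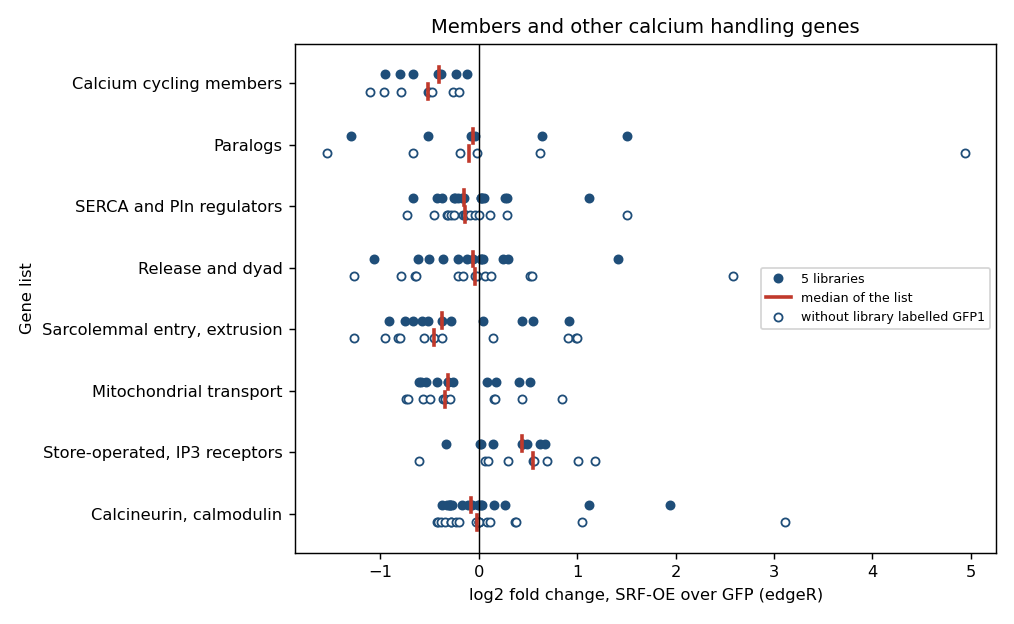
Log2 fold change of each tested gene, SRF-OE over GFP, for the 8 members at the top and for the other calcium lists by role. Filled points are the fit with 5 libraries, open points the fit with the library labelled GFP1 left out, and the red bars are list medians, -0.40 and -0.51 for the members. The members lie to the left of 0, the open point at 4.94 is Casq1, and the medians of the other lists run from -0.37 to 0.44 with 5 libraries.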

How the data were processed

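RNA-seq libraries were made from FACS-sorted GFP-positive CMs with a SMART-Seq kit and Nextera XT. The authors used STAR (2.5.3a in the submitters' processing notes) for alignment to mm10 and FeatureCounts (Subread 1.5.2) for counting, and the deposited values are raw counts per gene. Strand and multiply mapped read settings are not given in the sources used here. The deposited gene lengths, which stand under the header of SRF-OE replicate 1, served for values per kb, and 0 columns of sample values were left unused. The study's methods used DESeq2 with an adjusted p of 0.05 as cutoff.

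The whole table was fitted in R 4.3.3 by edgeR 4.0.16 with filterByExpr, TMM factors, glmQLFit and glmQLFTest, group as the only term, and Benjamini-Hochberg adjustment with a cutoff of 0.05. The standard error is the log2 fold change divided by the square root of the F statistic. The 5 libraries with counts were used, so p-values measure the spread between these libraries. Ratios within a library were compared with exact permutation tests. DESeq2 1.42.0, other scalings and filters, leaving out each library and the replicate number as a block were alternatives. The replicate numbers come from the titles, and the 2 pairs they form are too few to show a pairing. No 2 libraries of a group agreed within sampling noise. Member genes and gene lists were chosen with earlier results of these data known. The genes named outside the members were those called in either fit, those with an unadjusted p under 0.05 over 5 libraries and a mean of 10 CPM or more, the most abundant of each list per kb, and all paralogs. Ryr2 was named outside this rule, as the gene of the release channel. Of the listed calcium handling genes, Strit1 was not matched and 8 were matched by older symbols, as was the leukocyte marker Adgre1. Positions are from the GENCODE annotation of GRCm38, the assembly that mm10 names.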

Additional observations from a re-analysis of the deposited data

How the results depend on the processing

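Adding the replicate number to the fit as a block gave Srf a log2 fold change of 2.78 and called 1 member, Hrc at -1.17 (adjusted p = 0.036), with 5 other calcium genes lower and 5 higher. Over all genes this block called 3.14% lower and 4.23% higher. Without the library labelled GFP1, the block gave 2.78, the same 1 member, 5 and 5, where 2.93% of all genes were lower and 4.08% higher. That library is alone in its block, so both block fits take the group difference from the same 4 libraries. Their agreement does not show that the call holds with the library labelled GFP1 kept in. The deviations of same-numbered libraries correlated across genes at 0.37 for number 2 and -0.06 for number 3 with 5 libraries. Without the library labelled GFP1 each group has 2 libraries, so both numbers must give the same value, which was 0.20. The numbers form 2 pairs only and are not taken as pairs. In those 4 libraries the number and the sex of the tissue coincide, so a block by number and a block by sex cannot be told apart. DESeq2 with 5 libraries called 3 members and 5 other genes lower, where it called 18.3% of the 1167 genes with an adjusted p lower. In settings added after the data were seen, all without the library labelled GFP1, Srf was at 2.87 with DESeq2 and with DESeq2's size factors and at 2.92 with upper quartile scaling. Members called lower were 5 with DESeq2 and 0 with the other scalings, other genes lower were 8, 5 and 0, and other genes higher were 6, 4 and 1. Over all genes DESeq2 called 6.14% lower and 6.29% higher. Of 13397 genes, DESeq2's size factors called 206 lower and 330 higher, and upper quartile scaling 9 lower and 88 higher. Over the 5 fits that each left out a library, Srf ranged from 1.13 to 2.87, other genes lower from 0 to 4 and higher from 0 to 4, and the log2 difference of the Pln to Atp2a2 ratio from -0.12 to 0.31, turning to -0.0083 without GFP replicate 3. Members called stayed at 0 in these fits. Leaving out an SRF-OE library leaves 1, assumed to vary like the GFP group.

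Atp2a2 ranged from -0.97 to -0.67, Hrc from -1.42 to -0.61 and Pln from -1.03 to -0.38 over the edgeR and DESeq2 fits. Relative to the cardiomyocyte markers the sign turned for Casq2 (0.193), Slc8a1 (0.324), Camk2d (0.0572), S100a1 (0.0123) and Asph (0.0350). With a library left out it turned for Slc8a1 (from -0.195 to 0.0355), Fkbp1a (from -0.0102 to 0.121), Orai1 (from -0.178 to 0.189), Atp2a1 (from -0.195 to 0.0944) and Camk2g (from -0.153 to 0.0543). Upper quartile scaling turned Camk2g to 0.0056, and to 0.0423 without the library labelled GFP1. The cause of these changes was not tested. All other settings kept the direction of each named gene, Ryr2 apart, which was not followed over the settings. An exact permutation test of 2 against 3 libraries cannot give a p under 0.1.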
